A study of Mus musculus with 3 samples.

Results

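The 6 genes described here, Psca, Ly6a, Ly6c1, Ly6d, Ly6e and Lypd3, belong to the Ly6 family and were found by symbol among the 32285 genes of 3 single-cell libraries. They were chosen with their library levels already known: Psca for being almost absent from the proton library, and Ly6a and Ly6e for their link to interferon. Those levels are therefore given as a description. Ly6 proteins are small, cysteine-rich domains folded into 3 fingers, and most are held on the outer face of the plasma membrane by a glycosylphosphatidylinositol (GPI) lipid anchor. They have no cytoplasmic tail, and individual members act in cell adhesion, lymphocyte biology and receptor modulation. Several are widely used surface markers of stem, progenitor or differentiating cells, and some are induced by interferon.

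The cells came from organoids, 3-dimensional epithelial cultures, of the submandibular salivary gland of C57BL/6 mice aged 8 to 12 weeks, derived from 4 animals that the labels do not tie to cells. The 3 groups were proton (7 Gy, in the beam plateau), photon (7 Gy) and control (non-irradiated), with irradiation on day 5 and collection on day 11. All groups grew in Matrigel in the same medium, with EGF, FGF2, N2, insulin, dexamethasone, the kinase inhibitor Y27632 and conditioned media carrying R-spondin1 and Wnt3a, and medium was refreshed after irradiation. After trypsin, 45000 propidium iodide negative cells a sample were sorted and loaded for 10x 3' sequencing, so every group is 1 library of sorted, live cells that remained in culture.

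Unique molecular identifiers (UMIs) count captured transcripts. After filtering, there were 13956 proton, 15041 photon and 13219 control cells. The median cell had 2223 UMIs in proton, 2808 in photon and 2757 in control. Levels are UMIs per 1000000 UMIs of the library (CPM), and intervals are 95% counting intervals. They cover counting error only, not cultures, animals or library preparation, so each ratio compares 2 libraries and no p-value is possible. A gene was counted as higher or lower at a ratio of at least 1.5 in either direction and a mean of at least 25 CPM, which left 5 of the 6 genes measured, all but Lypd3. Libraries shared 55 to 61 cell barcodes in each pair.

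In the proton library against control, 3 of the 5 measured genes were higher (Ly6a, Ly6c1 and Ly6e) and 2 were lower (Psca and Ly6d). The Ly6a and Ly6e calls were near the threshold: Ly6a stood at 1.49 with the cluster mixture held equal, and Ly6e at 1.48 with stricter cell filters. Among all 5870 genes measured in that comparison, 10.8% were higher and 14.9% lower. In the photon library against control, 2 were higher (Ly6a and Ly6c1) and 1 lower (Ly6d), beside 5.75% and 8.19% of 5790 genes. In the proton library against the photon library, 0 were higher and 3 were lower (Psca, Ly6a and Ly6d), beside 22.7% and 16.3% of 5814 genes. The comparisons share libraries, and these counts were fixed in part by how the genes were chosen, so nothing is read from them.

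**Figure D1:**
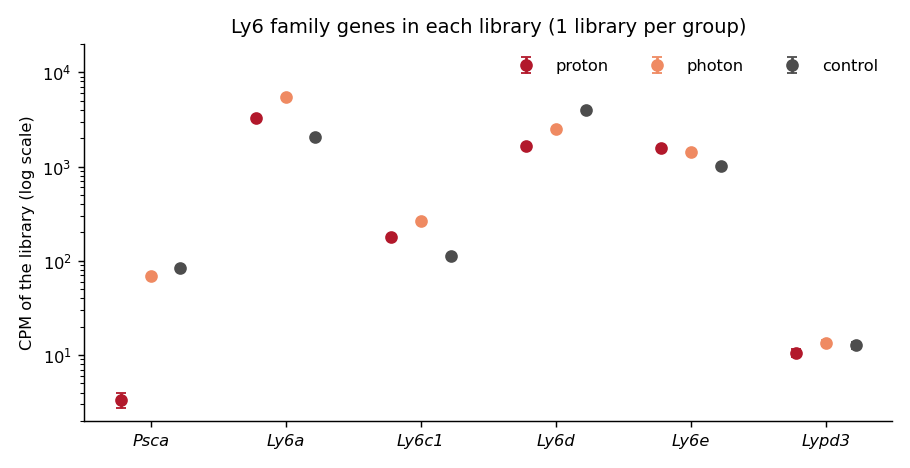
Level of the 6 Ly6 family genes in CPM on a log axis, in the proton (left), photon and control (right) library of each gene; bars are 95% Poisson intervals and mostly lie within the points. Psca stands at 3.32 CPM in proton, against 68.2 in photon and 83.5 in control, while the other genes differ by less than 3-fold between libraries.

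Psca, prostate stem cell antigen, is a GPI-anchored protein of epithelial surfaces. It lies on chromosome 15 at 74714839 to 74717069 on the plus strand (ENSMUSG00000022598, GRCm38). It stood at 3.32 CPM (2.76 to 3.97) in the proton library, 68.2 CPM (65.9 to 70.6) in the photon library and 83.5 CPM (80.7 to 86.4) in the control library. The proton/control ratio was 0.0398 (0.0330 to 0.0477) and the photon/control ratio 0.817 (0.778 to 0.858).

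Those totals came from very few cells. Psca had 122 UMIs in 20 proton cells, 3202 UMIs in 89 photon cells and 3299 UMIs in 157 control cells. The 5 cells with the most Psca held 65.6% of its UMIs in proton, 90.4% in photon and 80.6% in control. Among the genes of at least 25 CPM, the median gene had 0.897% of its UMIs in its top 5 cells in proton, 0.709% in photon and 0.798% in control. Genes above 50% were Psca and Sprr2f in photon, and Psca, Sprr2f and Sprr2d in control, where the Sprr2 genes encode proteins of the cornified envelope. In proton, where Psca is under 25 CPM, there were 0.

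The single highest cell held 30 Psca UMIs in proton, 1125 in photon and 1092 in control. In the photon library the next cells held 717, 623, 224 and 207, and in the control library 677, 434, 270 and 186. In the top photon cell Psca was 10.5% of all UMIs, and in the top control cell 9.32%. Cells with at least 100 Psca UMIs numbered 0 of 13956 in proton, which allows a share of up to 0.0264%. Photon and control had 5 each, at 0.0332% (0.0108 to 0.0776) and 0.0378% (0.0123 to 0.0882), so the intervals overlap. The Poisson intervals above treat each UMI as a separate event and do not include the chance of capturing so few cells.

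**Figure D2:**
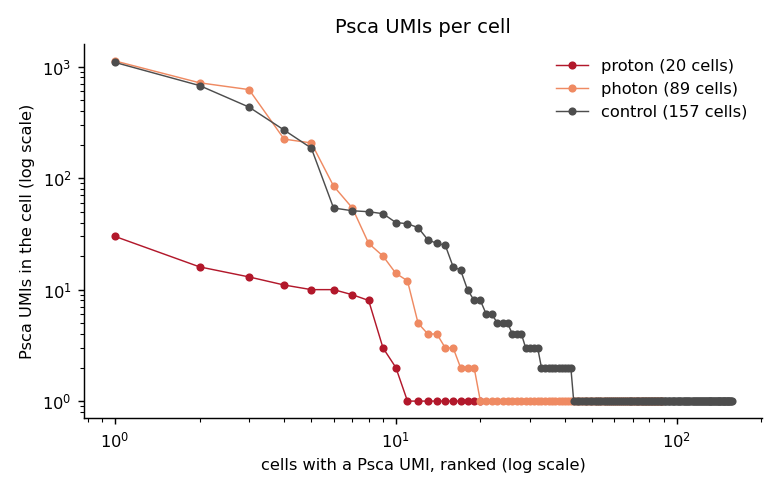
Psca UMIs per cell for every cell with at least 1, ranked from the highest, both axes on a log scale, for the proton, photon and control library. Photon and control each have 5 cells above 100 UMIs; the proton cells run from 30 UMIs down.

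Counted by cells, the gap between proton and the other libraries was smaller, and that between photon and control was larger. Cells with at least 10 Psca UMIs numbered 6 in proton, 11 in photon and 18 in control. The ratio of their shares of all cells was 0.316 (0.103 to 0.830) for proton/control, 0.537 (0.229 to 1.20) for photon/control and 0.588 (0.179 to 1.73) for proton/photon. For cells with at least 1 Psca UMI the ratios were 0.121 (0.0717 to 0.193), 0.498 (0.380 to 0.650) and 0.242 (0.141 to 0.397) in the same order. Psca was chosen for being low in proton and cells are not replicates, so these ratios are a description. With the 5 highest cells of each library left out, a choice made after seeing the data, Psca stood at 1.15 CPM in proton, 6.52 in photon and 16.2 in control. With at most 10 UMIs counted in any cell it stood at 2.51, 4.37 and 9.67 CPM in the same order, a proton/control ratio of 0.259. Proton was lowest and control highest each time, but the size of the difference moved more than 6-fold, and photon, close to control in the total, then stood below it at a ratio of 0.402 or 0.452.

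The cells with at least 10 Psca UMIs were also deep ones. Their median total was 3882 UMIs in proton, 5485 in photon and 7838.5 in control, and 1 of 6, 2 of 11 and 7 of 18 exceeded the 99th percentile of their own library. Doublets were not removed, and their part in these cells was not tested. Without the 5% of cells with the most UMIs, Psca stood at 2.95 CPM in proton, 15.7 CPM in photon and 15.9 CPM in control. Of these cells, 0 shared a barcode with another library.

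Most Psca UMIs of photon and control, though not of proton, sat in 1 cluster. Most cells with a Psca UMI lay outside it: 14 of 20 in proton, 72 of 89 in photon and 112 of 157 in control. Cells were clustered together without the Ly6 family, interferon and cell cycle genes. Cluster 6 is called squamous-like, since 10 of its 11 detected squamous markers stood at least 1.5-fold above other cells. Its leading genes were Psca, Sprr2f, Sprr2d, the chemokines Cxcl3 and Ppbp, the keratin Krt6b, Calm4, the keratin Krt13, S100a9 and Il1a. It held 336 proton cells (2.41%), 283 photon cells (1.88%) and 201 control cells (1.52%). It contained 41.8% of Psca UMIs in proton, 96.3% in photon and 96.1% in control.

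The cluster was therefore larger in proton than in control while Psca within it was lower. Psca in cluster 6 stood at 38.3 CPM (28.5 to 50.3) in proton, 2254 CPM (2175 to 2335) in photon and 2697 CPM (2604 to 2793) in control. With each cell thinned to 2000 UMIs, Psca was seen in 4 of 299 cluster 6 cells in proton (1.34%, 0.366 to 3.39), 12 of 277 in photon (4.33%, 2.26 to 7.45) and 36 of 189 in control (19.0%, 13.7 to 25.4). Before thinning the shares were 1.79%, 6.01% and 22.4% in the same order, with median depths of 3794, 4412 and 5562 UMIs.

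Outside cluster 6, Psca was seen in 0.103% of proton cells, 0.488% of photon cells and 0.860% of control cells, at median depths of 2193, 2778.5 and 2738 UMIs. In the control library no cell outside cluster 6 had more than 5 Psca UMIs, and in photon none had more than 20. Free RNA in droplets can give the lowest of these counts, and its part was not tested. In proton the pattern was different: its highest Psca cell, with 30 UMIs, lay in cluster 1, and 71 of its 122 UMIs lay outside cluster 6. Without cluster 6, Psca stood at 2.01 CPM in proton, 2.57 in photon and 3.39 in control, a proton/control ratio of 0.592.

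Other squamous genes inside cluster 6 did not all follow Psca. Krt13, a keratin of non-cornified stratified epithelium, stood at 878 CPM in proton, 2018 in photon and 1829 in control. Sprr2f stood at 320, 1135 and 1517 CPM in the same order. Krtdap, a keratinocyte differentiation gene, ran the other way, with 3426 CPM in proton, 2316 in photon and 436 in control. Sprr1b, Krt10 and Ivl were also highest in proton, at 458, 143 and 27.8 CPM against 209, 30.6 and 12.8 in control. Krt6a, Krt16, Sbsn, Sprr1a, Calml3, Sprr2d and Krt6b were lowest in proton, and Krt4, Krt1, Cnfn and Dsg1a had few UMIs. The cells of cluster 6 thus differed between libraries in more than Psca.

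Cells with at least 2 Psca UMIs, of which there were 10 in proton, 19 in photon and 42 in control, were compared with cells without Psca. Ranked in the photon library by their level in those cells over cells without Psca, the 10 leading genes were Tff1, Gm9573, Nccrp1, Lce3a, Cnfn, Lce3c, Sprr2i, Sprr2f, Crct1 and Wfdc12. Sprr2f stood at 1668 CPM in Psca cells against 11.6 in Psca-negative cells in proton, 9530 against 13.1 in photon and 5304 against 9.39 in control. A few cells set these levels. In proton 2 cells held 49 and 21 of the 73 Sprr2f UMIs, in photon 2 cells held 384 and 393 of 904, and in control 3 cells held 437, 402 and 227 of 1410. Together the Psca cells carried 14.4% of all Sprr2f UMIs in proton, 56.4% in photon and 77.1% in control. Tff1, a secreted trefoil peptide of gastric mucus, had 101 of its UMIs in the photon Psca cells, with 0 UMIs in Psca cells of proton and of control. The 10 genes were picked for being high in photon Psca cells, so lower values in the other libraries were built into the choice. In proton, 6 of the 10 genes (Tff1, Nccrp1, Lce3a, Cnfn, Lce3c and Wfdc12) had 0 UMIs in the Psca cells, and Gm9573, Sprr2i and Crct1 had 1 to 3. In control, Tff1, Lce3a and Wfdc12 had 0 there too. Over the whole proton library Tff1, Nccrp1 and Lce3a stood at 0 CPM, Cnfn at 0.0273 and Wfdc12 at 0.0545. Of the 14 squamous markers, 3 were higher in Psca cells of proton and 8 each in those of photon and control. These counts rest on 10, 19 and 42 cells and have no share of all genes beside them, so nothing is read from them.

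The other Ly6 genes were read in the same cells. Ly6a stood at 3473 CPM in Psca cells against 3316 in Psca-negative cells in proton, 8023 against 5520 in photon and 5846 against 2042 in control. Ly6d stood at 2651 against 1645 CPM in proton, 4417 against 2527 in photon and 6553 against 3962 in control. Ly6e stood at 2217 against 1572 CPM in proton, 1855 against 1411 in photon and 1584 against 1016 in control. Pooled over cells, Ly6d and Ly6e were thus higher in Psca cells in each library, and Ly6a in photon and control. Single cells varied widely: the cell with the most Psca held 0 Ly6d UMIs in proton, 2 in photon and 3 in control. The next cell held 9, 37 and 113 in the same order, and a photon cell with 12 Psca UMIs held 101. Ly6c1 stood at 91.4 against 181 CPM in proton, 274 against 262 in photon and 218 against 111 in control. Their interferon transcripts were near the level of other cells, with 5096 against 6078 CPM in proton, 6874 against 7343 in photon and 703 against 680 in control.

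Lypd3, known as C4.4A, is a GPI-anchored protein of stratified squamous epithelium. It lies on chromosome 7 at 24636550 to 24641118 on the plus strand (ENSMUSG00000057454), the only one of the 6 outside chromosome 15. It was rare, with 10.5 CPM (9.44 to 11.6) in proton, 13.5 CPM (12.4 to 14.6) in photon and 12.6 CPM (11.5 to 13.8) in control. At 2000 UMIs it was seen in 2.05%, 2.57% and 2.25% of cells in the same order. Its proton/control ratio was 0.829 (0.724 to 0.949) and its photon/control ratio 1.07 (0.947 to 1.20).

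Lypd3 shared its place with Psca but not its size in proton. In cluster 6 it stood at 78.8 CPM (64.4 to 95.3) in proton, 106 CPM (89.4 to 125) in photon and 107 CPM (89.3 to 128) in control, several times its level elsewhere. Its top 5 cells held 5.73% of its UMIs in proton, 3.16% in photon and 4.61% in control, so no handful of cells set it. Over the 24 cluster and library sums of at least 100 cells, the Pearson correlation of log2(CPM + 1) was 0.769 between Psca and Lypd3, against 0.0455 to 0.323 between Psca and the other 4. These sums share libraries and depth, and the values are descriptive.

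Ly6a encodes Sca-1, the antigen that marks mouse haematopoietic stem cells and many epithelial progenitors, and is induced by interferon in mouse lymphocytes. It lies on chromosome 15 at 74994877 to 74998031 on the minus strand (ENSMUSG00000075602). It stood at 3316 CPM (3298 to 3335) in proton, 5525 CPM (5504 to 5546) in photon and 2074 CPM (2059 to 2088) in control. The proton/control ratio was 1.60 (1.59 to 1.61), the photon/control ratio 2.66 (2.64 to 2.69) and the proton/photon ratio 0.600 (0.596 to 0.604).

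Unlike Psca, Ly6a differed across whole libraries. Thinned to 2000 UMIs, it was seen in 97.6% of proton, 99.5% of photon and 94.3% of control cells. The median cell held 6 Ly6a UMIs in proton, 11 in photon and 4 in control. The cells of the photon library between the 10th and the 90th percentile held 5 to 19, against 1 to 8 in control, so the ranges of single cells overlap. Its top 5 cells held 0.248% of its UMIs in proton, 0.249% in photon and 0.563% in control.

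**Figure D3:**
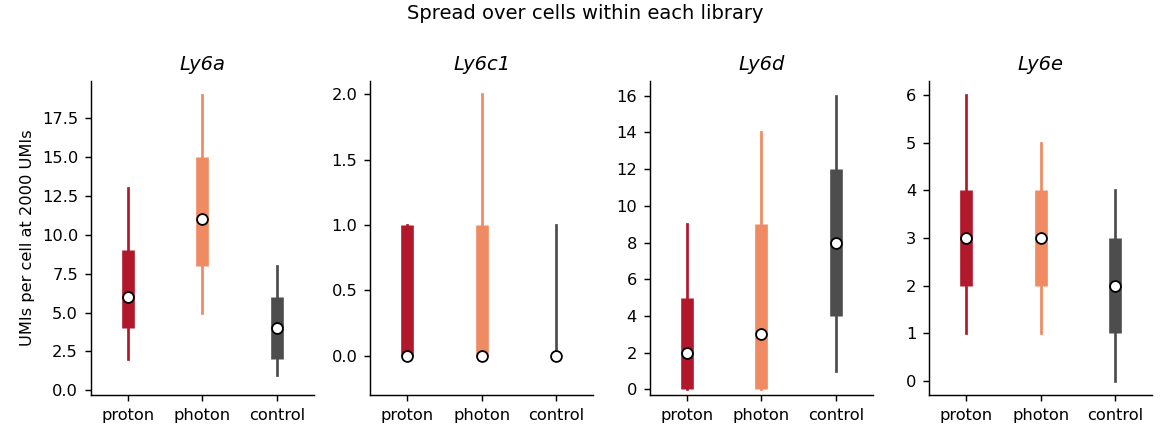
UMIs of Ly6a, Ly6c1, Ly6d and Ly6e per cell after thinning every cell to 2000 UMIs, in the proton (left), photon and control (right) library; circles are medians, thick bars run from the 25th to the 75th percentile of cells and thin lines the 10th to 90th percentile. The Ly6a median is 6 in proton, 11 in photon and 4 in control, and the Ly6d median 2 in proton, 3 in photon and 8 in control.

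Ly6c1 encodes an isoform of the Ly6C antigen of monocytes and endothelial cells in the mouse. It lies beyond Ly6a, with the long non-coding gene Gm28068 between them, on chromosome 15 at 75044018 to 75048830 on the minus strand (ENSMUSG00000079018). It stood at 181 CPM (177 to 185) in proton, 261 CPM (257 to 266) in photon and 112 CPM (109 to 116) in control. Both irradiated libraries were above control, at ratios of 1.61 (1.55 to 1.68) for proton and 2.33 (2.25 to 2.41) for photon, and 26.3% of proton, 35.4% of photon and 19.5% of control cells showed it at 2000 UMIs.

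Its values are less certain than those of its neighbours. Of the 50-base windows in the last 500 bases of its transcripts, 29.2% occur in other genes, mainly Ly6c2 and Ly6a. For Ly6a the share was 8.13%, and for Psca, Ly6d, Ly6e and Lypd3 it was 0%. Reads from those stretches can be dropped or split by counting. Ly6a and Ly6c1 also mark blood and endothelial cells, whose markers were nearly absent. The 5 endothelial markers summed to 2.21 CPM in proton, 1.13 in photon and 0.531 in control, with 2 of the 5 at 0 in each library. The 7 immune markers summed to 3.98, 2.73 and 4.00 CPM in the same order, and 0 of the 12 markers reached a mean of 25 CPM.

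The RefSeq promoter table (GRCm38.p6) held windows for Ly6c1, which followed Ly6a, and for Lypd3, which did not. The 250 bases before an annotated start of each are shown to set the promoters side by side, Ly6c1 at chr15:75048838-75049087 on the minus strand and Lypd3 at chr7:24636320-24636569 on the plus strand. Capitals mark matches, on either strand, to a TATA element (TATAAA) or a GC box (GGGCGG).
Ly6c1: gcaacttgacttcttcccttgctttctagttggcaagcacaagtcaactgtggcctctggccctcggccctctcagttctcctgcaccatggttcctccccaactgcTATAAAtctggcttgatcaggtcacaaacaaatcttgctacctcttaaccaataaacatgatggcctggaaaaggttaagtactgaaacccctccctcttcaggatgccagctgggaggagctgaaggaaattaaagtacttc
Lypd3: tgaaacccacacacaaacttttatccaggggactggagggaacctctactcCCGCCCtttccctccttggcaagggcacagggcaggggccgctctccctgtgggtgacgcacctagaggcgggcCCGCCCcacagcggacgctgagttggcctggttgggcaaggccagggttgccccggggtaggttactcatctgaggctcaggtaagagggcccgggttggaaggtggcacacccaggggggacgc
Ly6c1 had 1 TATAAA match and 0 GC boxes, and Lypd3 had 0 and 2. The Ly6c1 match began 143 bases before the annotated start, and those of Lypd3 began 199 and 125 bases before it. Among 32851 such windows 12.4% held TATAAA and 32.7% GGGCGG. Neither window held the interferon-stimulated response element, searched as GAAA, 2 bases of any kind and GAAA (2.98% of windows). Neither held TTCNNNGAA of the GAS site (7.02%) or TGANTCA of the AP-1 site (6.75%). The other Ly6c1 window of the table, which overlaps this one, held 0 matches to these motifs.

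Ly6e is a broadly expressed, interferon-induced member that restricts coronavirus entry in human and mouse cells. It lies on chromosome 15 at 74955051 to 74959905 on the plus strand (ENSMUSG00000022587). It stood at 1573 CPM (1560 to 1586) in proton, 1412 CPM (1401 to 1423) in photon and 1022 CPM (1012 to 1032) in control. Ratios were 1.54 (1.52 to 1.56) for proton/control, 1.38 (1.36 to 1.40) for photon/control and 1.11 (1.10 to 1.13) for proton/photon. The order of the irradiated libraries was therefore the reverse of that for Ly6a. The median cell at 2000 UMIs held 3 Ly6e UMIs in proton, 3 in photon and 2 in control.

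Interferon transcripts were compared with the Ly6 genes cell by cell, using a list of 34 interferon-stimulated genes that holds none of the 6. Summed, the list stood at 6076 CPM in proton, 7340 CPM in photon and 680 CPM in control. All 27 of its measured genes were higher in both irradiated libraries than in control, with a median log2 ratio of 3.01 for proton and 3.34 for photon, beside 0.00 and -0.11 over all measured genes. The 3 with the highest level were Bst2 (1379, 1754 and 96.3 CPM in proton, photon and control), Isg15 (680, 1267 and 49.2 CPM) and Irf7 (382, 399 and 29.9 CPM). Ly6a and Ly6e differed from control by far less than these.

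At 2000 UMIs a cell, 10 proton, 12 photon and 3176 control cells held no UMI of the list, while 4971 proton, 7983 photon and 38 control cells held 10 or more. In the control library, Ly6a stood at 4250 CPM in the 38 cells with 10 or more, against 2156 CPM in the cells with none, a ratio of 1.97 (1.76 to 2.20). Ly6e stood at 1882 CPM against 1017 CPM there, a ratio of 1.85 (1.56 to 2.18). Ly6d, at 4618 against 4453 CPM, gave 1.04 (0.931 to 1.15). Psca had the largest ratio of the 6 in those cells, 487 against 63.1 CPM, or 7.71 (5.35 to 10.8). That value rests on 37 UMIs summed over the 38 cells. How many of the cells held them was not counted, and the interval treats each UMI as a separate event. With 1 to 3 and 4 to 9 interferon UMIs, control Psca stood lower, at 32.34 and 16.04 CPM. From 4 to 9 to 10 or more, Psca went from 101 to 20.8 CPM in photon and from 5.49 to 2.92 CPM in proton. At 4000 UMIs a cell the photon order was the reverse, and control Psca rose over the lower bins. The part of Psca-rich, squamous-like cells in the Ly6a and Ly6e values was not tested. At 4000 UMIs a cell, with 85 control cells of 10 or more against 324 with none, the ratios were 1.41 (1.32 to 1.51) for Ly6a, 1.52 (1.37 to 1.68) for Ly6e, 4.88 (3.32 to 7.21) for Psca and 0.690 (0.643 to 0.740) for Ly6d. The Ly6d value was below 1 only at 4000 UMIs. The cells kept and the interferon share that a bin stands for change with the depth too, and their parts were not tested. Over all control cells at 2000 UMIs the rank correlation of Ly6a with the list was 0.0128.

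Cells of different libraries in the same bin of interferon UMIs did not have the same Ly6a level. A bin does not match the number itself. Cells above the bin of 4 to 9 made up 62.6% of proton, 73.3% of photon and 0.395% of control cells. The spread within a bin can therefore differ between libraries, and its part was not tested. With 4 to 9 such UMIs, Ly6a stood at 3134 CPM in proton, 5131 CPM in photon and 2434 CPM in control. The ratios were 1.29 (1.24 to 1.34) for proton/control and 2.11 (2.03 to 2.18) for photon/control, and with 1 to 3 UMIs they were 1.35 and 2.03. Photon cells with 4 to 9 interferon UMIs also stood above proton cells with 10 or more, at 3668 CPM. For Ly6e in the bin of 4 to 9, the ratios were 1.29 (1.22 to 1.36) for proton/control and 1.18 (1.12 to 1.24) for photon/control. Rank correlations of Ly6a with the list over cells were 0.171 in proton and 0.180 in photon, weak values in sparse counts.

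**Figure D4:**
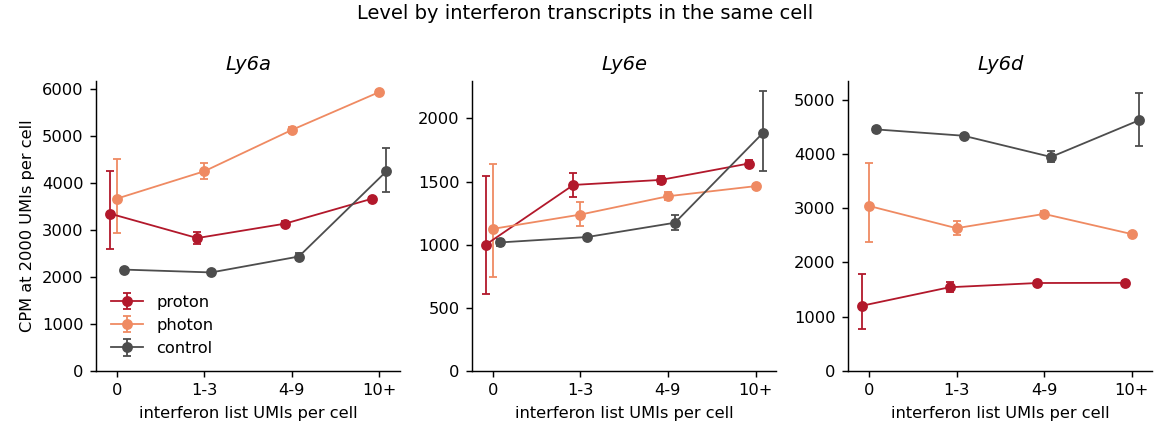
Level of Ly6a, Ly6e and Ly6d in CPM, after thinning to 2000 UMIs, in cells grouped by their UMIs of the 34-gene interferon list, for the proton, photon and control library; bars are 95% Poisson intervals. At 4 to 9 list UMIs Ly6a stands at 3134 CPM in proton, 5131 in photon and 2434 in control; Ly6d stays in the order control, photon, proton in every bin.

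Ly6d is an early marker of B-lineage lymphoid progenitors in the mouse and, in human keratinocytes, the antigen E48 of stratified epithelium. It lies on chromosome 15 at 74762056 to 74763620 on the minus strand (ENSMUSG00000034634), between Psca and Ly6e. It stood at 1647 CPM (1633 to 1660) in proton, 2533 CPM (2519 to 2548) in photon and 3989 CPM (3969 to 4009) in control. Ratios were 0.413 (0.409 to 0.417) for proton/control, 0.635 (0.630 to 0.640) for photon/control and 0.650 (0.644 to 0.656) for proton/photon.

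Like Ly6a, and unlike Psca, Ly6d differed across the body of cells. It was seen in 65.8% of proton, 71.4% of photon and 92.7% of control cells at 2000 UMIs, with medians of 2, 3 and 8 UMIs. The 25th percentile was 0 in both irradiated libraries, against 4 in control. The 75th percentile was 5 in proton, 9 in photon and 12 in control. The photon library thus held both cells without Ly6d and cells near the control level.

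Ly6d levels followed the clusters. In control it was highest in cluster 6, at 6006 CPM, then in cluster 3, led by Klk1b11 and Hp, at 5263 CPM, and in cluster 0, led by Aox3 and Orm3, at 4345 CPM. It was low in cluster 4, led by Igfbp2 and Apoe, with 490 CPM in proton, 775 CPM in photon and 1137 CPM in control. Cluster 2, led by Vim, Cxcl10 and cell cycle genes, had 769, 1378 and 2307 CPM in the same order. Cluster 0 held 348 proton, 2117 photon and 7124 control cells, while clusters 2 and 4 were each larger in both irradiated libraries than in control. Cluster 1, led by Pcdh9 and Sema3d, held 7297 proton, 1712 photon and 172 control cells. Ly6d stood there at 1765 CPM in proton, 3013 in photon and 3392 in control.

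Part of the Ly6d difference went with that change of clusters. Clusters were made without correction between libraries, so a change of clusters cannot be fully told apart from a difference between libraries. With the cluster mixture held equal the proton/control ratio was 0.542 and the photon/control ratio 0.804, which is no longer past 1.5-fold. In cluster 0 the photon level of 5092 CPM was above the control level, a ratio of 1.17 (1.15 to 1.19), and the proton level of 3738 CPM gave 0.860 (0.821 to 0.901). Within the 7 clusters with at least 100 cells in every library, the proton/control ratio ran from 0.333 to 0.876 and was past 1.5-fold lower in 5. The photon/control ratio ran from 0.597 to 1.17 and was past it in 2.

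For Ly6a the same 7 clusters gave photon/control ratios of 1.19 to 3.47, at least 1.5 in 6, and proton/control ratios of 0.868 to 2.55, at least 1.5 in 5. The exceptions were cluster 3, with a proton/control ratio of 1.45 (1.42 to 1.48), and for both comparisons cluster 6. In cluster 6 Ly6a stood at 3965 CPM in proton, 5415 CPM in photon and 4569 CPM in control. Its control level there was the highest of any control cluster with at least 100 cells, and the proton/control ratio was 0.868 (0.835 to 0.902). Ly6e behaved alike in cluster 6, with 1573 CPM in proton, 1355 CPM in photon and 1459 CPM in control, and ratios of 1.08 and 0.929. Elsewhere its proton/control ratio was 1.40 to 2.23. Ly6c1 was higher in photon than in control in 7 of the 7 clusters, by 1.62 to 3.71.

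**Figure D5:**
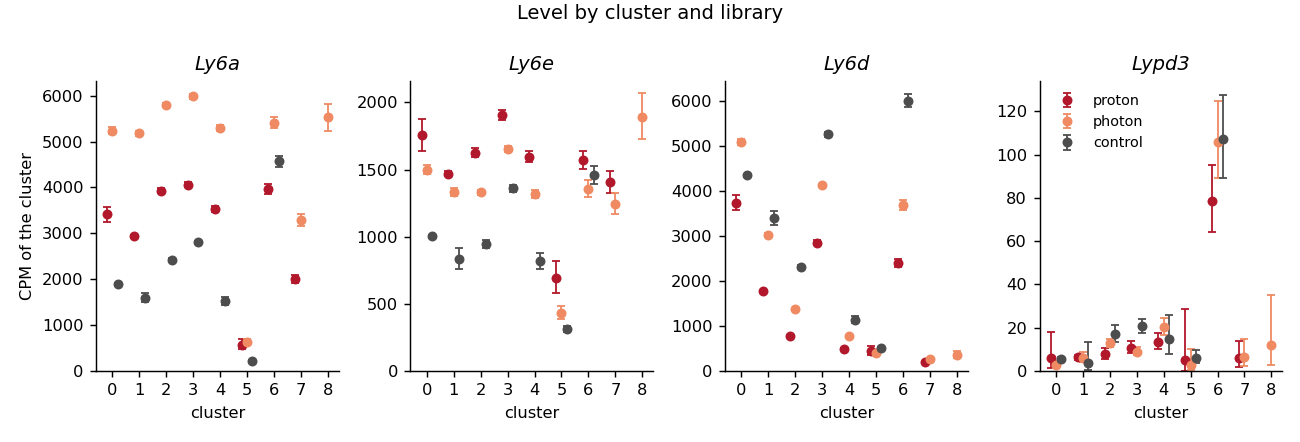
Level of Ly6a, Ly6e, Ly6d and Lypd3 in CPM by cluster, for clusters with at least 100 cells in the proton, photon or control library plotted; bars are 95% Poisson intervals. In cluster 6, the squamous-like cluster, control lies between proton and photon for Ly6a and Ly6e, and Lypd3 is at its highest in all 3 libraries.

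Cluster 5 was shallow, with a median of 920 UMIs a cell, led by long non-coding genes, and held 193 proton, 734 photon and 2668 control cells. Ly6a there stood at only 569 CPM in proton, 633 in photon and 223 in control. Leaving it out moved the Ly6a ratio to 1.505 for proton/control and 2.53 for photon/control.

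By Pearson correlation over the 24 cluster and library sums, among 5846 genes, Psca was most like Ppbp (0.877), Sprr2f (0.874), Gsto1 (0.858), Krt13 (0.819) and Cxcl5 (0.815). By rank correlation 0 of these 5 stayed among the first 5. Ly6a was most like Ifitm3 (0.963), an interferon-induced antiviral protein, then Tspo, Ly6e, Cox5b and Mrpl30 (0.911 to 0.914), with 1 of 5 kept by rank. Ly6d was most like Glul (0.9496), Sprr1a (0.923), Wnt4 (0.922), Nlrp10 (0.886) and Orm1 (0.862), and 5 of 5 were kept. Among the 6 themselves, Ly6a with Ly6e gave 0.912, Ly6a with Ly6c1 0.908 and Ly6a with Ly6d 0.394.

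The 5 chromosome 15 genes lie within 334 kb but did not move as a block. In order of position, the proton/control ratios were 0.0398 for Psca, 0.413 for Ly6d, 1.54 for Ly6e, 1.60 for Ly6a and 1.61 for Ly6c1. Of 25 other genes from 200 kb before to 200 kb after them, 3 reached a mean of 5 CPM. These were Lynx1, Gm17189 and Ly6k, with proton/control ratios of 1.09, 1.13 and 0.603. Them6, the next gene after Psca, stood at 3.62 CPM in proton, 4.35 CPM in photon and 5.47 CPM in control.

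Of 37 other Ly6/uPAR family genes, 33 had a mean below 5 CPM and 12 had no UMI in any library. Lypd6b, a modulator of nicotinic acetylcholine receptors, was the only one over 25 CPM in any comparison, with 64.8 CPM in proton, 39.1 CPM in photon and 61.4 CPM in control. Its photon/control ratio of 0.636 (0.599 to 0.676) was lower past 1.5-fold and its proton/photon ratio of 1.66 (1.56 to 1.76) higher. Plaur, the urokinase receptor, stood at 9.70 CPM in proton, 19.4 in photon and 24.2 in control. Ly6k stood at 7.09, 8.44 and 11.7 CPM in the same order, and Lynx1 at 14.3, 12.0 and 13.1 CPM. Ly6k overlaps the antisense gene Gm17189, and the sources used here do not say whether counting used strand.

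Genes that make and attach the GPI anchor were read as a list. Of 26 listed, 9 were measured. In proton against control 1 was higher and 3 lower, in photon against control 0 and 0, and in proton against photon 3 higher and 3 lower. Over all measured genes, the shares higher and lower were 10.8% and 14.9%, 5.75% and 8.19%, and 22.7% and 16.3% in the same order. With 9 genes, nothing is read from these counts. The list's median log2 ratio was -0.06 for proton/control, -0.06 for photon/control and -0.24 for proton/photon, beside 0.00, -0.11 and 0.08 over all measured genes. The 3 most abundant were Dpm1 (92.0, 140 and 163 CPM in proton, photon and control), Pigp (66.1, 111 and 116 CPM) and Pign (96.7, 55.0 and 74.8 CPM). In 3' counts, levels of different genes are transcripts captured and are not compared per length.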

How the data were processed

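The authors deposited, for each library, unnormalised UMI counts per gene and cell barcode. Per the submitters' processing notes they came from Cell Ranger 7.0.1 on mm10; the file headers name version 7.0.0. The sources used here do not say whether reads in introns were counted. No deposited barcode had fewer than 500 UMIs, so an earlier filter had been applied.

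Cells with at least 500 genes and at most 20% mitochondrial UMIs were kept, which left 36692939 UMIs in proton, 46936995 in photon and 39514768 in control. Counts were summed over cells and scaled to CPM. Ratios carry exact 95% Poisson intervals (conditional binomial, Clopper-Pearson) and shares exact binomial intervals, and a count of 0 was read against a floor of 3 counts. The ratio and its interval were tested on simulated Poisson counts, which share the assumption of the interval. UMIs gathered in few cells, as for Psca, were not simulated. Scrublet marked 1 proton cell and 0 cells in photon and control, under the 0.5% below which its calls were set aside, and doublets were kept.

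Clusters were made over all kept cells from 2000 variable genes, 30 principal components and 20 neighbours with scanpy 1.11.5 and leidenalg 0.10.2 at resolution 0.5, without correction between libraries. Gene positions are from GENCODE mouse release 21, where 32158 of 32285 IDs matched. Of the GPI anchor list, Pigy is not analysed here.

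The 6 genes, the gene lists and the rules were chosen with earlier results of these data known. Named beside the 6 are family and neighbouring genes of at least 5 CPM on average, the 5 genes most like Psca, Ly6a and Ly6d, the 10 leading genes of Psca cells, and the 3 most abundant members of each list. The squamous genes read in cluster 6 are named as well. Alternatives changed the scaling, cell filters, doublet handling, cluster mixture, depth, fold and thinning.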

Additional observations from a re-analysis of the deposited data

How the results depend on the processing

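With 1 library per group there is no replicate to leave out. No paired analysis was possible because each group is 1 library. Psca proton/control, 0.0398 as reported, was 0.185 without the 5% of cells with the most UMIs, 0.0173 with the cluster mixture held equal, 0.0848 with cells thinned to 2000 UMIs, 0.592 without cluster 6, 0.0706 without the 5 cells with the most Psca and 0.259 with at most 10 UMIs counted per cell. Psca photon/control, 0.817 as reported, was 0.877 with scaling by the median of gene ratios, 0.985 without the deepest 5%, 0.923 thinned, 0.778 without cluster 5, 0.757 without cluster 6, 0.402 without the 5 cells and 0.452 capped. Leaving out clusters 5 or 6 or the 5 cells, and the cap, were chosen after seeing the data.

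Ly6a proton/control was 1.63 with the other scaling, 1.62 with all barcodes, 1.51 with at least 1000 genes and at most 10% mitochondrial UMIs, 1.68 without the deepest 5%, 1.49 at equal mixture, 1.505 without cluster 5, 1.65 without cluster 6 and 1.49 capped. Ly6a photon/control was 2.86, 2.54 (stricter cells), 2.76, 2.23, 2.53, 2.77 and 1.68 for those settings other than all barcodes. Ly6e proton/control was 1.57 with the other scaling, 1.48 with stricter cells, 1.58 at equal mixture, 1.505 thinned, 1.47 without cluster 5, 1.56 without cluster 6 and 1.501 capped. Ly6e photon/control was 1.48, 1.32, 1.33, 1.36, 1.33 and 1.40 for the same settings other than the cap, and 1.41 without the deepest 5%.

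At 2-fold, 0 of the measured genes were higher in proton/control, 0 lower in photon/control and 1 lower in proton/photon. The median scaling moves photon/control by 0.10 on the log2 scale; under it, and at equal mixture, 0 genes were lower in photon/control, and at equal mixture 2 were higher in proton/control and 1 lower in proton/photon. Ly6a proton/control fell short of 1.5 at equal mixture and capped, and Ly6e proton/control with stricter cells and without cluster 5. The share of cells with Psca was 0.270% at 4000 UMIs in proton, 0.259% at 1000, 0.894% at 4000 and 0.592% unthinned in photon, and 0.625%, 2.07% and 1.19% in control. One value reversed, which the report does not use: Ly6d in control cells with 10 or more against 4 to 9 interferon UMIs was 1.17 at 2000 UMIs and 0.740 at 4000. The causes were not tested.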

Other observations

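The barcodes left out by the filters, 569 in proton, 885 in photon and 1047 in control, held 1, 2 and 11 Psca UMIs in that order, so the filters did not remove a Psca-rich population. Ly6a in the left-out barcodes stood at 2406 CPM in proton, 1916 CPM in photon and 316 CPM in control.

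Clusters 7 and 8 had 21 cells each in control. Cluster 7, led by Fn1, stood at 191 CPM of Ly6d in proton, 253 CPM in photon and 664 CPM (533 to 819) in control. Cluster 8, led by Ctla2a, stood at 364 CPM in proton, 352 CPM in photon and 1810 CPM (1384 to 2325) in control. In the 133 photon cells of cluster 8, Ly6e stood at 1892 CPM, the highest Ly6e level of any photon cluster.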
